A study of Mus musculus with 8 samples.

Results

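Somatostatin (Sst), its relative cortistatin (Cort), growth hormone-releasing hormone (Ghrh) and the 5 somatostatin receptors (Sstr1 to Sstr5) were followed as 8 gene rows of 24421 in count tables of ribosome-bound RNA from Otp-lineage cells. They were chosen by gene symbol, 3 secreted peptides and 5 receptors, and all 8 passed the filter on low counts, among 15438 genes tested. In KO mice both copies of Cic were floxed (Cicflox/flox) on a background of Otp-Cre and ROSAfsTRAP, and Control mice had Otp-Cre and ROSAfsTRAP without the floxed Cic. Both were C57BL/6, with 4 libraries a group, and the labels give no age. Cre under Otp control acts in cells of the Otp lineage and their descendants, and the TRAP allele marks the ribosomes of recombined cells so that their RNA can be pulled down from dissected hypothalamus and medial amygdala. Whether each library is a separate animal is not stated, and the p-values therefore cover only library-to-library spread, part of which may be technical. The comparison asks how loss of Capicua, the DNA-binding repressor encoded by Cic, changes RNA on the ribosomes of these cells.

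Somatostatin made by neurons of the periventricular hypothalamus is released into the portal blood and restrains the release of growth hormone (GH) from the pituitary, while GHRH, made mainly in the arcuate nucleus, drives it. Somatostatin is also a transmitter of inhibitory neurons in the amygdala and elsewhere, and in mice Otp is required for the somatostatin neurons of the anterior periventricular area to form. The 5 receptors couple to inhibitory G proteins, lower cyclic AMP and open potassium channels. SSTR3 is the one known to sit on the primary cilium of neurons.

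The peptides of Sst and Cort bind the same receptors, and the bases that encode them are shown to set the peptides side by side. Somatostatin-14 is the last 14 codons of the Sst coding sequence (chr16:23889732-23889773, minus strand), set here beside the last 14 codons of Cort (chr4:149125267-149125308, minus strand), from GENCODE transcripts on GRCm38. Capitals mark bases identical between the genes when the Cort codons are moved by 1 codon, 31 of 39 bases compared.
Sst: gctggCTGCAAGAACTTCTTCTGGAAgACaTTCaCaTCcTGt
Cort: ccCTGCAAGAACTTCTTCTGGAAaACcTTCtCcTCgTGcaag
The longest exact run that Sst and Cort share is 21 bases, the length of the first run of capitals. Among receptor pairs the longest is 41 bases, between Sstr3 and Sstr5, and the other receptor pairs share at most 23.

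Promoter windows of 250 bases before to 50 after a start were matched in RefSeq (GRCm38.p6) for 6 of the 8 genes, in 8 windows. They were searched on both strands for the octamers that Capicua is known to bind, TGAATGAA and TCAATGAA, and for the cyclic AMP response element TGACGTCA through which cyclic AMP is known to drive Sst. A Capicua octamer was in 1 of the 8 windows, that of Cort (chr4:149126714-149127013, minus strand), 17 bases after the start, and in 2.03% of all 32851 windows. The cyclic AMP element was in those of Sst (chr16:23890795-23891094, minus strand), 48 bases before the start, and Sstr2 (chr11:113619077-113619376, plus strand), 58 bases before it, and in 1.79% of all windows. Those windows are shown because they hold the letters of a factor tied to this system, with the match in capitals.
Cort promoter: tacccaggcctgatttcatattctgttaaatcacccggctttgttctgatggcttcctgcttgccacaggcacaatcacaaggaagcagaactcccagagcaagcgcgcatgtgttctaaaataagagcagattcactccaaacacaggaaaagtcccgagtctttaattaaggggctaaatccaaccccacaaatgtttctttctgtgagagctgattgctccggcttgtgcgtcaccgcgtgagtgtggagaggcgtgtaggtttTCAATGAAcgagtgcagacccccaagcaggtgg
Sst promoter: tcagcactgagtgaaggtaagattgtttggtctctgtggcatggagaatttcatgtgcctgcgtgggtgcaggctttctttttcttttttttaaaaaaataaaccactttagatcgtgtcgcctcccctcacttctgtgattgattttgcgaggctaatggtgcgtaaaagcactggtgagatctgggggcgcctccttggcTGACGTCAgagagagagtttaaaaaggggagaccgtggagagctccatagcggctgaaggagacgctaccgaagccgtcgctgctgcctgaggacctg
Sstr2 promoter: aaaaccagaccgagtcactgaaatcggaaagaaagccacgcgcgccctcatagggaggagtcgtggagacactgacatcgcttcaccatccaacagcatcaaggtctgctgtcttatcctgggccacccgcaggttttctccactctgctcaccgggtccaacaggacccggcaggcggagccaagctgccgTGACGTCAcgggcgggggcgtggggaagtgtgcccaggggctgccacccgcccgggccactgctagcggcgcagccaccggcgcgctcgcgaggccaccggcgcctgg
Neither set of letters was in the windows of Ghrh, Sstr3 or Sstr4. Sstr1 and Sstr5 have no window in the table. A match is a description of the sequence, not evidence of binding.

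Gene counts per library were 33223878 to 49587839 in KO and 38171319 to 57300362 in Control. Levels are in CPM, the count relative to the library total after TMM scaling. Cic was at 44.8, 34.4, 59.2 and 37.5 CPM in KO replicates 1 to 4, against 103, 72.3, 101 and 100.5 CPM in Control replicates 1 to 4 (log2 fold change of -1.10 with an SE of 0.21, adjusted p by edgeR = 0.00220), so the labels match the targeted gene in every library. Otp, which marks the lineage, was low in both groups, at 2.68 to 8.55 CPM in KO, against 2.28 to 5.01 CPM in Control (log2 fold change of 0.53 with an SE of 0.41, adjusted p by edgeR = 0.633). All 9 Otp-lineage and neuroendocrine markers were detected, with summed levels of 689 to 1188 CPM in KO, against 629 to 796 CPM in Control. Oligodendrocyte markers were also present, at a summed 1785 to 3264 CPM in KO, against 2795 to 3580 CPM in Control.

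One library stood apart within this hormone axis. Gh, growth hormone itself, which is made in pituitary somatotrophs, had 63789 counts (1462 CPM) in KO replicate 2, against 85 counts or fewer in the other 3 KO libraries and 2 counts or fewer in each Control library. Prl, prolactin of pituitary lactotrophs, had 9014 counts (207 CPM) in KO replicate 2, against at most 2 counts in any other KO library and 0 in all 4 Control libraries. Ghrhr, the GHRH receptor of somatotrophs, had 51 counts (1.17 CPM) in KO replicate 2 and 0 in the other 7 libraries. Pou1f1, the transcription factor of somatotrophs, lactotrophs and thyrotrophs, had 130 counts there, 1 in KO replicate 4 and 0 elsewhere. Fshb was at 16.1 CPM, Cga at 60.7 CPM and Tshb at 3.14 CPM in KO replicate 2, each its highest value over the 8 libraries. Gh, Prl, Ghrhr, Pou1f1 and Fshb failed the filter on low counts, because too few libraries reached the minimum, and have no test. KO replicate 2 therefore holds pituitary transcripts that the other libraries lack or hold at far lower levels, and the fold change of each of the 8 genes is also given without it.

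**Figure D1:**
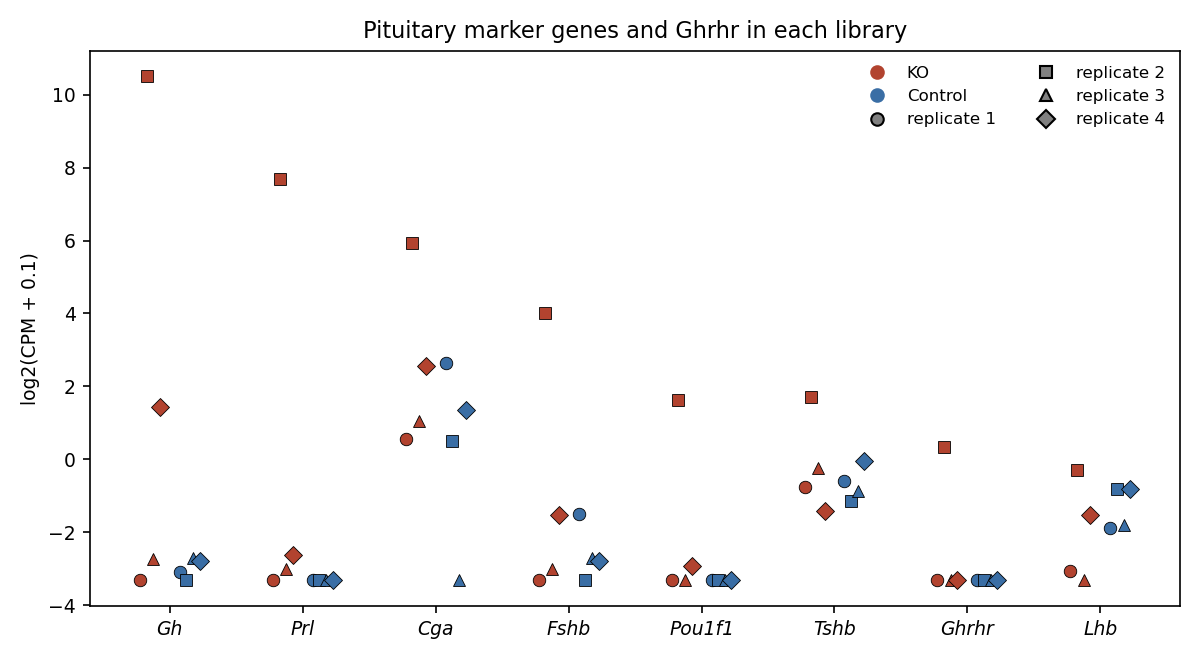
Level of 7 pituitary markers and Ghrhr in each library, as log2(CPM + 0.1) on the y axis, with KO in red left of Control in blue and a symbol for each replicate. KO replicate 2 (red square) lies far above all other libraries for Gh, Prl, Fshb, Pou1f1 and Ghrhr, at 1462 CPM for Gh, and is also the highest for Cga, at 60.7 CPM, and Tshb, at 3.14 CPM.

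Of the 8 genes, only Sstr3 passed edgeR adjusted p 0.05 over all genes tested, and it fell. Of all genes tested, 0.259% passed in either direction and 0.0648% as lower in KO. Sstr3 was also the only member without overlap between the groups, a pattern found in 5.91% of all genes tested, as lower in KO in 2.92% and as higher in KO in 2.99%. At an unadjusted edgeR p of 0.05, 3 of the 8 passed (Sstr3, Sst and Ghrh), against 10.6% of all genes tested, and Sst and Ghrh did so as higher in KO, against 6.06%. Of the 8 fold changes 5 were positive, against 53.8% of all genes tested.

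Among the peptides, Sst (ENSMUSG00000004366.4, chromosome 16 from 23889573 to 23890958 on the minus strand of GRCm38, 2 exons) was by far the most abundant. It was at 431, 777, 678 and 1020 CPM in KO replicates 1 to 4, against 541, 464, 432 and 598 CPM in Control replicates 1 to 4. KO replicates 2, 3 and 4 lay above every Control library and KO replicate 1 just below the lowest of them, so the groups overlapped. The means were 726 ± 244 CPM in KO and 509 ± 75.1 CPM in Control (SD, n = 4 each), and the difference did not pass (log2 fold change of 0.51 with an SE of 0.28, adjusted p by edgeR = 0.342, limma-voom 95% interval 0.02 to 0.89, around the voom estimate and not adjusted over genes). In RNA of many cells, more or fewer cells of a type cannot be told apart from more or less RNA in each cell.

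The spread of Sst was wider in KO, where the highest library was 2.37 times the lowest, than in Control, where it was 1.39 times. Without KO replicate 2 the log2 fold change was 0.47 (edgeR adjusted p = 0.476), without KO replicate 1 it was 0.69 (adjusted p = 0.0761) and without KO replicate 4 it was 0.30 (adjusted p = 0.456). With the glial and vascular score as covariate it was 0.68 (edgeR adjusted p = 0.0878). Per kilobase of exon, Sst ranked 21st in Control among 14842 tested genes with a length.

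Ghrh (ENSMUSG00000027643.9, chromosome 2 from 157329497 to 157347506 on the minus strand) is the hormone that opposes somatostatin at the pituitary. It was at 30.0048, 67.9, 48.7 and 62.9 CPM in KO replicates 1 to 4, against 33.9, 43.2, 38.7 and 32.1 CPM in Control replicates 1 to 4. Again KO replicates 2, 3 and 4 were above every Control library and KO replicate 1 was below all of them. The means were 52.4 ± 17.0 CPM in KO and 36.9 ± 4.99 CPM in Control (SD, n = 4 each), which did not pass (log2 fold change of 0.50 with an SE of 0.28, adjusted p by edgeR = 0.345, limma-voom 95% interval 0.00 to 0.88). KO replicate 2, which holds the pituitary transcripts, was the highest, and without it the log2 fold change was 0.34 (edgeR adjusted p = 0.584). Without KO replicate 1 it was 0.69 (edgeR adjusted p = 0.0669).

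The level of ribosome-bound Sst RNA relative to Ghrh RNA did not differ detectably between the groups. The ratio of Sst to Ghrh CPM was 14.0 ± 1.96 in KO, with a range of 11.4 to 16.2, and 14.1 ± 3.83 in Control, with a range of 10.8 to 18.6 (SD, n = 4 each). On the log2 scale the difference was 0.01 (exact two-sided permutation p = 0.943, adjusted p = 0.943 over 13 pairs). The KO ratios lay inside the range of the Control ratios.

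Cort (ENSMUSG00000028971.4, chromosome 4 from 149125034 to 149126763 on the minus strand) was scarce. It had 8, 0, 11 and 28 counts in KO replicates 1 to 4, against 51, 12, 6 and 64 counts in Control replicates 1 to 4. The count of 0 in KO replicate 2 allows up to 3 counts, which is 0.0711 CPM by library total, by counting error alone. At 0.325 ± 0.375 CPM in KO and 0.686 ± 0.587 CPM in Control (SD, n = 4 each) the groups overlapped and the difference was not detectable with this spread between libraries (log2 fold change of -1.12 with an SE of 0.90, adjusted p by edgeR = 0.732). The fitted value was -0.70 without KO replicate 2 and -2.24 without KO replicate 4 (edgeR adjusted p = 0.840 and 0.320). It was -0.48 without Control replicate 4 (edgeR adjusted p = 0.952) and -0.18 with a glial and vascular score as covariate (edgeR adjusted p = 0.972).

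**Figure D2:**
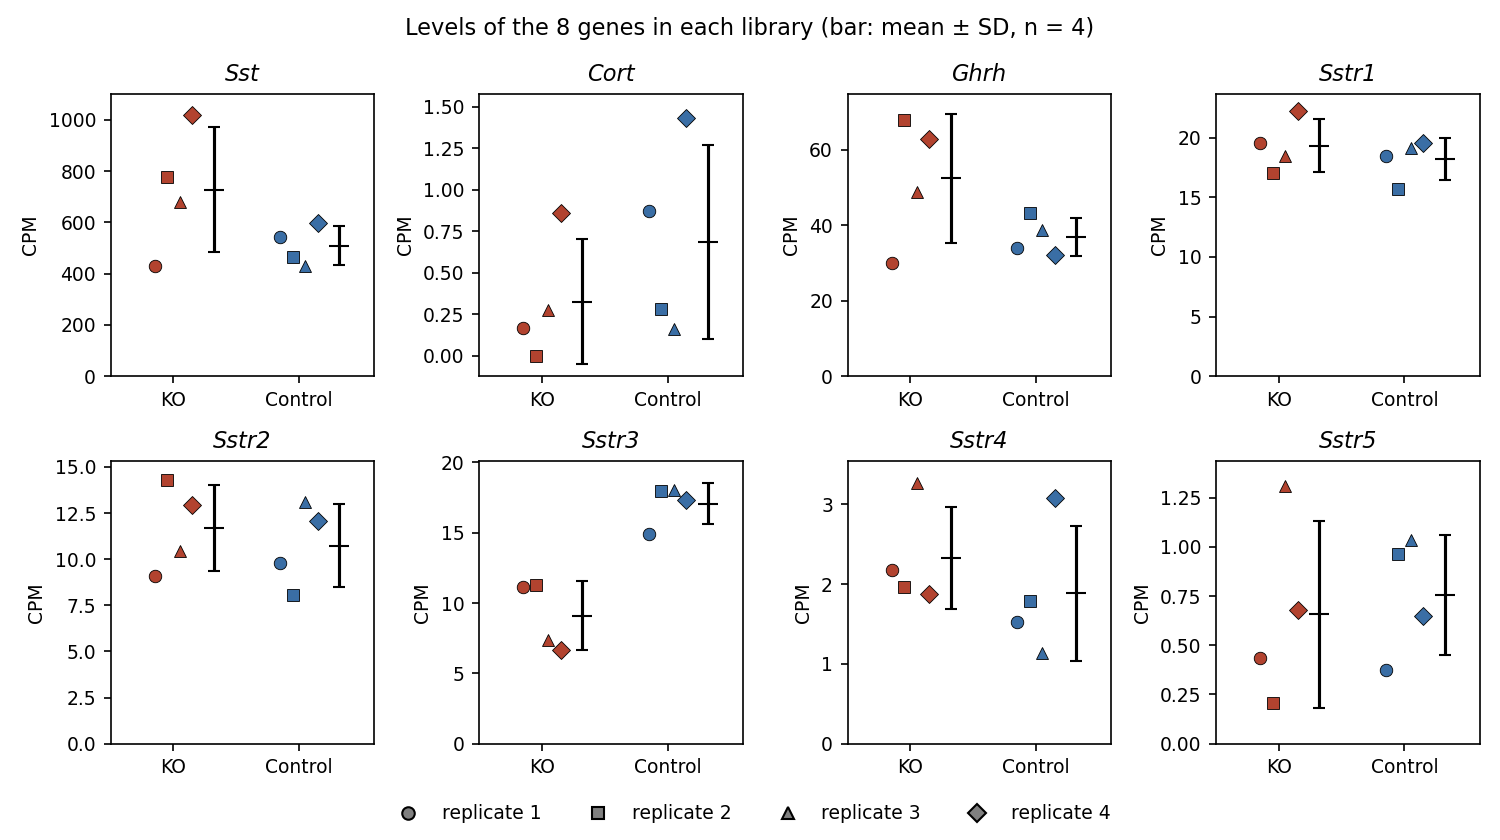
CPM of each of the 8 genes (y axes) in the 4 KO libraries (red, left) and the 4 Control libraries (blue, right), with a symbol for each replicate and a bar for the mean ± SD. The groups are apart for Sstr3, at 6.65 to 11.3 CPM in KO, against 14.9 to 18.05 CPM in Control, and overlap in the other 7 panels.

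Among the receptors, Sstr3 (ENSMUSG00000044933.3, chromosome 15 from 78537008 to 78544685 on the minus strand) had 539, 492, 297 and 216 counts in KO replicates 1 to 4, against 871, 765, 682 and 775 counts in Control replicates 1 to 4. As CPM these were 11.1, 11.3, 7.35 and 6.65 in KO, against 14.9, 17.99, 18.05 and 17.3 in Control. Every KO library was below every Control library, and within KO replicates 3 and 4 lay below replicates 1 and 2. KO replicate 4, lowest for Sstr3 and highest for Sst, had the fewest gene counts of all libraries (33223878). It also had the largest share of records outside gene rows (90.2%), and the part of depth in these levels was not tested. Sstr3 fell to 9.10 ± 2.44 CPM in KO, against 17.1 ± 1.48 CPM in Control (SD, n = 4 each), which is 53.4% of the Control level (log2 fold change of -0.90 with an SE of 0.21, adjusted p by edgeR = 0.0489, exact permutation p = 0.0286, the smallest that 4 against 4 can give).

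The call sits at the threshold, and the direction held in every alternative run, with log2 fold changes of -1.03 to -0.79 over 18 alternatives, of which 9 passed. It passed without KO replicate 2 (log2 fold change -1.03, edgeR adjusted p = 0.0375) and without KO replicate 1 (adjusted p = 0.0434), and it did not pass without KO replicate 3 (0.119), KO replicate 4 (0.0653), Control replicate 1 (0.111), Control replicate 2 (0.148), Control replicate 3 (0.121) or Control replicate 4 (0.201). Oligodendrocyte markers were on the same side, with 14 of 14 fold changes negative and a median of -0.34, and 1 of them, Cldn11, a claudin of myelin, fell to 28.0 ± 7.56 CPM in KO, against 49.2 ± 5.67 CPM in Control (SD, n = 4 each, edgeR adjusted p = 0.0375, and 0 of the 14 called without KO replicate 2). Of these 14 genes 4 had no overlap between the groups, beside 5.91% of all genes tested. DESeq2 called 4 of the 14 (Mag, Cldn11, Mal and Trf), beside 182 of all 15438 genes. With limma-voom 1 of the 14 was called (Cldn11), beside 32 of all 15438 genes. With a glial and vascular score as covariate the Sstr3 log2 fold change was -0.98 and no longer passed (edgeR adjusted p = 0.0565), and calls over all genes numbered 23, against 40 without the covariate. The unadjusted edgeR p of Sstr3 was 9.7e-05 with the covariate, against 0.000126 in the main fit. The part of glial RNA in the Sstr3 difference was not tested. Of the other glial and vascular markers, 1 of 12 microglial, 1 of 9 oligodendrocyte precursor, 4 of 10 astrocytic, 4 of 11 endothelial and mural and 2 of 9 ependymal genes had positive fold changes, with 0 past the edgeR test in each list.

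The other 4 receptors did not pass. Sstr1 (ENSMUSG00000035431.4, chromosome 12 from 58211772 to 58214444) was at 19.5, 17.0, 18.5 and 22.2 CPM in KO replicates 1 to 4, against 18.5, 15.7, 19.2 and 19.6 CPM in Control replicates 1 to 4. Libraries of both groups were interleaved (19.3 ± 2.21 CPM in KO and 18.2 ± 1.75 CPM in Control, SD, n = 4 each, log2 fold change of 0.08 with an SE of 0.11, adjusted p by edgeR = 0.899, limma-voom 95% interval -0.23 to 0.38, and 0.13 without KO replicate 2). Sstr2 (ENSMUSG00000047904.6, chromosome 11 from 113619342 to 113626028), the receptor through which somatostatin analogues chiefly act on the pituitary, was at 9.09, 14.3, 10.5 and 12.9 CPM in KO replicates 1 to 4, against 9.77, 8.04, 13.1 and 12.1 CPM in Control replicates 1 to 4. The groups overlapped (log2 fold change of 0.12 with an SE of 0.21, adjusted p by edgeR = 0.888, limma-voom 95% interval -0.29 to 0.54), with a log2 fold change of 0.0024 without KO replicate 2. Sstr2 lies opposite the gene Slc39a11, and their exons share 0 bases.

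Sstr4 (ENSMUSG00000037014.4, chromosome 2 from 148395344 to 148396767, a gene of 1 exon) was at 2.18, 1.97, 3.27 and 1.88 CPM in KO replicates 1 to 4, against 1.52, 1.79, 1.14 and 3.09 CPM in Control replicates 1 to 4. The groups overlapped (log2 fold change of 0.30 with an SE of 0.34, adjusted p by edgeR = 0.846, and 0.36 without KO replicate 2). Sstr5 (ENSMUSG00000050824.12, chromosome 17 from 25489875 to 25497288), known as a receptor of pituitary cells and pancreatic islets, had 21, 9, 53 and 22 counts in KO replicates 1 to 4, against 22, 41, 39 and 29 counts in Control replicates 1 to 4. KO replicate 2, the library with pituitary transcripts, had the fewest Sstr5 counts of the 8. Sstr5 averaged 0.657 ± 0.477 CPM in KO and 0.755 ± 0.303 CPM in Control (SD, n = 4 each, log2 fold change of -0.20 with an SE of 0.55, adjusted p by edgeR = 0.947), and its sign turned to 0.09 without KO replicate 2 (edgeR adjusted p = 0.981).

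**Figure D3:**
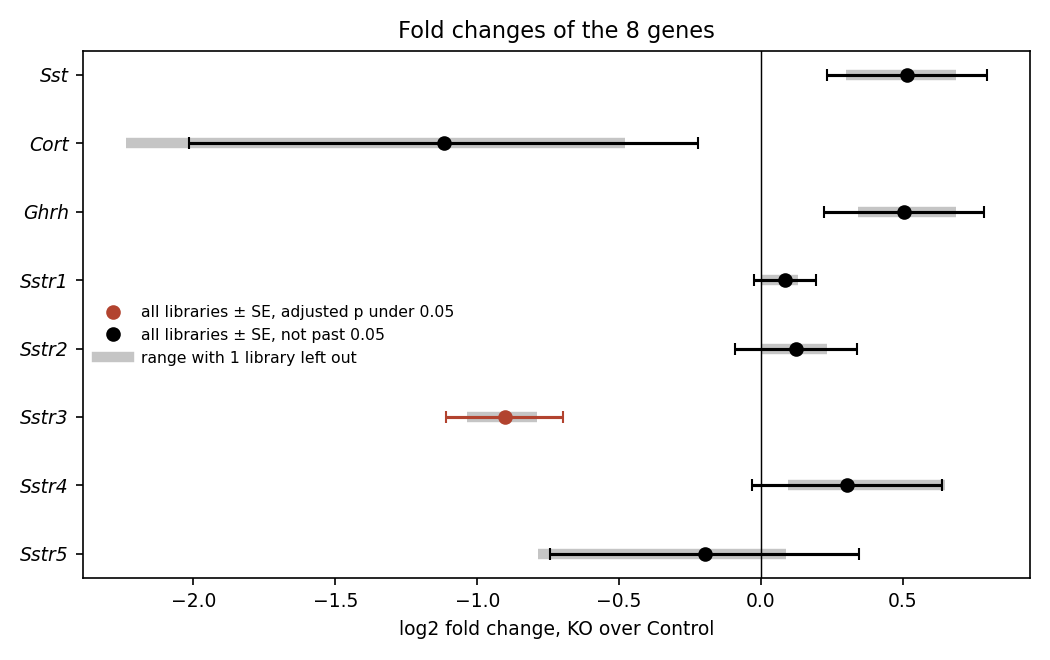
Log2 fold change, KO over Control, of the 8 genes (x axis), as the fit over all libraries ± SE (points with bars) and the range over 8 fits with 1 library left out (grey bands). Sstr3 at -0.90 is the only point past adjusted p 0.05, and its band spans -1.03 to -0.79. The bands of Sst, Ghrh, Sstr1, Sstr2 and Sstr4 lie above 0, that of Cort lies below 0 and that of Sstr5 crosses 0.

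Whether Sstr3 differed from the other receptors in its response was tested as the log2 ratio of 2 members in each library. Of 13 pairs within a role, 3 of peptides and 10 of receptors, 2 had no overlap between the groups, Sstr1 over Sstr3 and Sstr2 over Sstr3. The log2 ratio of Sstr1 to Sstr3 was 1.11 ± 0.51 in KO and 0.09 ± 0.21 in Control (SD, n = 4 each, difference 1.02, exact permutation p = 0.0286, adjusted p = 0.186). That of Sstr2 to Sstr3 was 0.38 ± 0.51 in KO and -0.68 ± 0.32 in Control (SD, n = 4 each, difference 1.06, exact permutation p = 0.0286, adjusted p = 0.186). Without KO replicate 2 the differences were 1.19 and 1.07. Neither passed after adjustment over 13 pairs, where the smallest unadjusted p that 4 against 4 can give is 0.0286. Sstr3 over Sstr4 differed by -1.28 (exact permutation p = 0.0571, adjusted p = 0.248) and Sstr3 over Sstr5 by -0.62 (exact permutation p = 0.429, adjusted p = 0.669). If only the 4 pairs that hold Sstr3 reached that smallest p, their adjusted p would be 0.0929, so these ratios could not have shown a difference of Sstr3 alone at 0.05.

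Levels were set side by side only per length, as CPM per kilobase of merged exons. In KO the order was Sst (1007), Ghrh (78.4), Sstr1 (9.44), Sstr2 (5.46), Sstr3 (2.11), Sstr4 (1.63), Cort (0.480) and Sstr5 (0.240), as mean CPM per kilobase. In Control it was the same, Sst (705), Ghrh (55.3), Sstr1 (8.91), Sstr2 (5.01), Sstr3 (3.95), Sstr4 (1.32), Cort (1.014) and Sstr5 (0.276). The libraries of neighbours in this order overlapped for Sstr3 with Sstr4 and for Cort with Sstr5 in KO, and for Sstr2 with Sstr3, Sstr4 with Cort and Cort with Sstr5 in Control. All other neighbours were apart in every library of a group.

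As a share of the receptor total per kilobase, Sstr3 made up 14.2%, 13.7%, 9.25% and 7.70% in KO replicates 1 to 4, against 18.9%, 24.2%, 20.1% and 18.6% in Control replicates 1 to 4. Sstr1 made up the most in every library, 43.6% to 54.3% in KO and 44.3% to 49.5% in Control, and Sstr2 made up 23.5% to 34.99% in KO and 21.8% to 29.3% in Control. The summed receptor level was 18.9 ± 0.862 CPM per kilobase in KO and 19.5 ± 2.09 in Control (SD, n = 4 each), with ranges that overlapped. These shares rest partly on the Sstr3 values above and are given as a description.

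**Figure D4:**
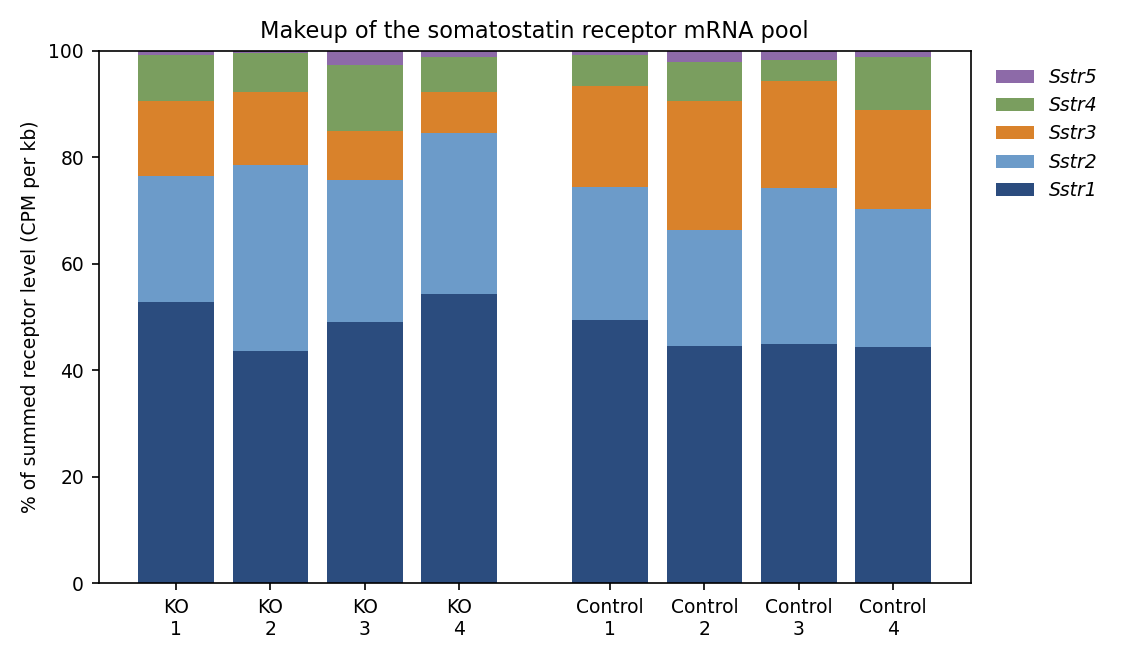
Share of each of the 5 receptor genes in their summed level (y axis, % of CPM per kilobase) in the 4 KO libraries (left) and the 4 Control libraries (right), each bar 1 library. Sstr3 (orange) takes 7.70% to 14.2% in KO and 18.6% to 24.2% in Control, and Sstr1 (dark blue) is the largest share in every library.

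The genes whose libraries ran most like each member were found by the root mean square difference of log2 CPM over 8 libraries, after each gene's mean was taken away, among 15437 genes. For Sst they were Ndufc1 (0.12), a subunit of respiratory complex I, Tmem230 (0.14) and Fkbp11 (0.14), where Sst itself varied by 0.41 about its mean. For Ghrh they were Dnaic1 (0.14), a dynein chain of motile cilia, Itfg3 (0.14) and Stk32b (0.15), where Ghrh varied by 0.41. For Sstr3 they were Evc2 (0.18), a protein of the base of the primary cilium, Msantd3 (0.19) and Zfp13 (0.19), where Sstr3 varied by 0.53. Evc2 had 1.45 ± 0.428 CPM in KO and 3.02 ± 0.580 CPM in Control (SD, n = 4 each, log2 fold change of -1.05, edgeR adjusted p = 0.263). For Cort they were Slc26a4 (0.36), Kmo (0.36) and Plekhf1 (0.48), for Sstr1 Psmc2 (0.05), Zfp644 (0.06) and Fcho1 (0.06), and for Sstr2 Acss1 (0.08), St3gal6 (0.11) and Taco1 (0.11). For Sstr4 they were 4930525G20Rik (0.22), Rab40b (0.23) and Zfp583 (0.23), and for Sstr5 Opn4 (0.17), Epsti1 (0.31) and Kir3dl2 (0.33), and none of the 24 nearest genes passed the test between KO and Control. Likeness over 8 libraries that share depth and tissue says nothing of shared function.

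Of the remaining GH axis, 0 of 10 tested genes passed the edgeR test in either direction, with a median log2 fold change of 0.24 beside 0.02 over all genes tested. Igf1r, the receptor of the growth factor that carries much of GH action, was at 49.1 ± 3.84 CPM in KO and 38.6 ± 5.32 CPM in Control (SD, n = 4 each, log2 fold change of 0.35, edgeR adjusted p = 0.322). Igf1 was at 9.92 ± 2.79 CPM in KO and 13.5 ± 3.07 CPM in Control (SD, n = 4 each, log2 fold change of -0.45, edgeR adjusted p = 0.473), and Stat5b, a transcription factor of GH signalling, had a log2 fold change of 0.33 (edgeR adjusted p = 0.473). Gsx1, a homeobox gene that mouse GHRH neurons need, was at 2.18, 3.44, 2.05 and 1.94 CPM in KO replicates 1 to 4, against 1.88, 2.61, 2.04 and 1.16 CPM in Control replicates 1 to 4, which did not pass (edgeR adjusted p = 0.822). The GH receptor Ghr was at 19.3 to 25.0 CPM in KO, against 19.9 to 21.5 CPM in Control (log2 fold change of 0.05, edgeR adjusted p = 0.936).

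Of the transcription factors and cofactors tied to Sst or its neurons, 0 of 16 tested passed in either direction (median log2 fold change 0.10). Sim1, a hypothalamic lineage factor, was at 0.65 (edgeR adjusted p = 0.228), Lhx6, of forebrain interneurons, at -0.38 (adjusted p = 0.391) and Pou3f2 at 0.30 (adjusted p = 0.589). Of the genes known to share neurons with Sst, 0 of 18 tested passed in either direction (median -0.01). Nos1, neuronal nitric oxide synthase, was at 131 ± 26.7 CPM in KO and 89.3 ± 12.2 CPM in Control (SD, n = 4 each, log2 fold change of 0.55, edgeR adjusted p = 0.137), with no overlap between the groups, and Calb2 (calretinin, 0.34, adjusted p = 0.285) had none either. These were the 2 of the 18 without overlap, beside 5.91% of all genes tested. Elfn1 was at 0.38 (edgeR adjusted p = 0.353). Npy, a peptide often found with Sst, was at 27.3 CPM in KO and 28.2 CPM in Control (log2 fold change of -0.05, edgeR adjusted p = 0.969).

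Of the enzymes and granule proteins that turn prosomatostatin into stored peptide, 0 of 17 tested passed in either direction (median log2 fold change 0.02). The granule protein gene Vgf was at 58.2 ± 11.7 CPM in KO and 35.9 ± 5.53 CPM in Control (SD, n = 4 each, log2 fold change of 0.70, edgeR adjusted p = 0.0684), with no overlap, and Cadps2 was at 0.38 (adjusted p = 0.336) and Scg3 at 0.27 (adjusted p = 0.467). Vgf was the only gene of the 17 without overlap, beside 5.91% of all genes tested. Of the G proteins and effectors of the receptors, 0 of 33 tested passed in either direction (17 positive, 16 negative, median 0.01). In this list 5 genes had no overlap between the groups, beside 5.91% of all genes tested. Genes of the list with the smallest p were the adenylyl cyclases Adcy1 (-0.46, edgeR adjusted p = 0.208) and Adcy9 (-0.34, adjusted p = 0.290) and the potassium channel subunit Kcnj9 (-0.39, adjusted p = 0.225), each with KO below Control in every library.

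Genes of the primary cilium, where the Sstr3 protein sits, had fold changes of both signs. Of 10 other ciliary receptors and cyclase genes tested, 0 passed, 5 were positive and 5 negative (median log2 fold change -0.05). Mchr1, the melanin-concentrating hormone receptor, was at 12.1 ± 1.22 CPM in KO and 16.0 ± 3.90 CPM in Control (SD, n = 4 each, log2 fold change of -0.40, edgeR adjusted p = 0.438), Kiss1r at -0.52 (adjusted p = 0.441) and Htr6, at most 1.03 CPM in any library, at -0.91 (adjusted p = 0.672). Adcy3, the cyclase of neuronal cilia, was at 11.8 CPM in KO and 13.0 CPM in Control (log2 fold change of -0.14, edgeR adjusted p = 0.861). Of 27 genes of cilium assembly and trafficking 0 passed, 19 were positive and 8 negative (median 0.17), with Kif3a at 0.42 (edgeR adjusted p = 0.352), Cep290 at 0.36 (adjusted p = 0.384) and Bbs9 at 0.31 (adjusted p = 0.431). In these 27, 3 genes had no overlap between the groups (Bbs1, Bbs9 and Ttc8, higher in KO), beside 5.91% of all genes tested. Over the 7 lists, which hold 131 distinct tested genes, 0 passed with edgeR and 0 with limma-voom. DESeq2 called 2 of them, Vgf and Nos1, beside 182 of all 15438 genes. An unadjusted edgeR p under 0.05 was found for 21 of the 131, beside 10.6% of all genes tested. Without KO replicate 2, edgeR again called 0 genes of these lists.

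**Figure D5:**
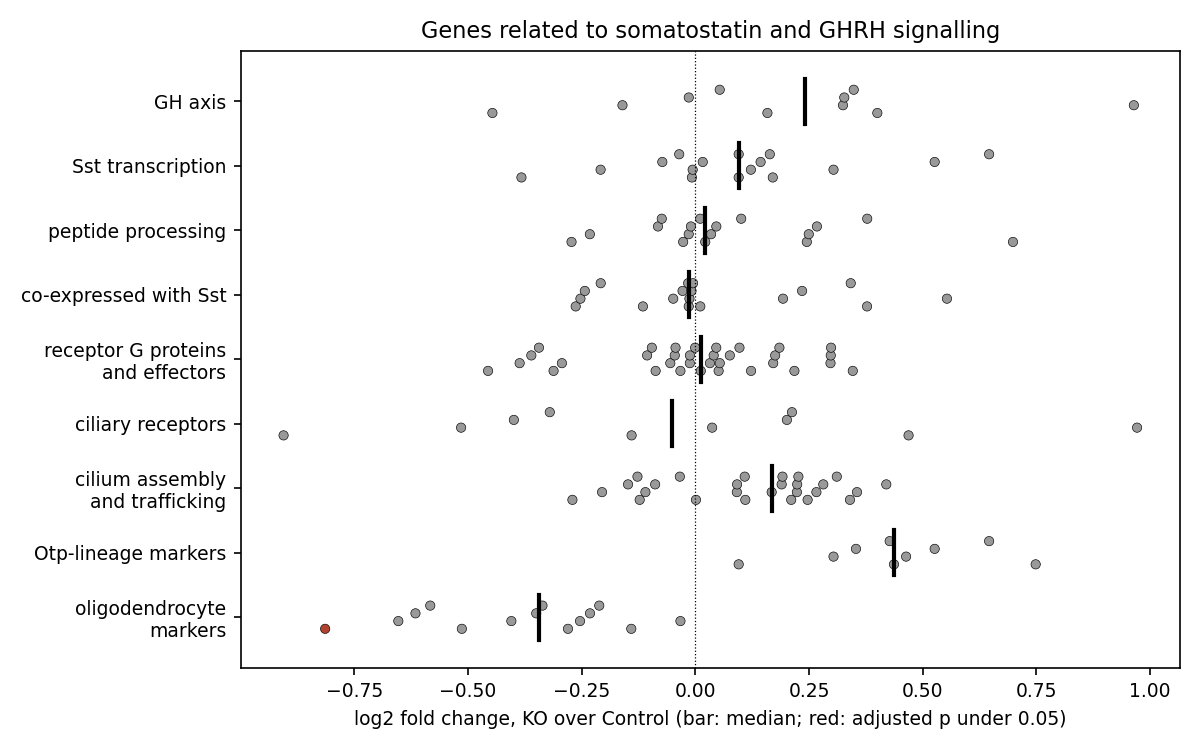
Log2 fold change, KO over Control (x axis), of each tested gene in 9 lists (rows), with a bar at the list's median and genes past adjusted p 0.05 in red. The medians of the 7 lists tied to somatostatin and GHRH signalling lie between -0.05 and 0.24 with no gene in red, the Otp-lineage markers all lie above 0, and Cldn11 among the oligodendrocyte markers is the 1 red point.

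Markers of cells that could hold these genes were set beside them. The 9 Otp-lineage and neuroendocrine markers all had positive fold changes, with a median of 0.44 and 0 past the test (edgeR adjusted p = 0.228 for Sim1, the smallest), on the same side as Sst and Ghrh, and 0.44 without KO replicate 2. Their summed level was 983, 1009, 689 and 1188 CPM in KO replicates 1 to 4, against 696, 725, 796 and 629 CPM in Control replicates 1 to 4. In that sum KO replicate 1 was above every Control library, and KO replicate 3 was below Control replicates 1, 2 and 3. Most of the sum came from Avp (mean of 328 CPM in KO and 244 in Control), Oxt (317 and 189) and Arnt2 (213 and 199). For Sst and Ghrh, KO replicate 1 was below every Control library and KO replicate 3 above every one. The 7 tested arcuate markers had a median of -0.02. The summed level of all 8 arcuate markers, with the untested Kiss1, was 219, 319, 259 and 409 CPM in KO replicates 1 to 4, against 310, 345, 328 and 337 CPM in Control replicates 1 to 4. KO replicate 1, lowest for Ghrh and Sst, was lowest in that sum too. Cartpt was the largest part of the sum, at a mean of 180 CPM in KO and 226 CPM in Control. Pomc, also in it, was highest in KO replicate 2, the library with pituitary transcripts, at 97.1 CPM, against 15.3 to 70.2 CPM elsewhere. The 8 tested forebrain interneuron markers had a median of -0.25 with 2 positive, and the summed level was 177 to 207 CPM in KO, against 218 to 239 CPM in Control. The 5 tested cortical excitatory markers had a median of -0.46 with 2 positive and 0 past the test, and -0.41 without KO replicate 2. With the untested Emx1 their summed level was 38.9 to 98.7 CPM in KO, against 63.1 to 158 CPM in Control. The part of these cells in the levels of Sst, Ghrh and Sstr3 was not tested.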

How the data were processed

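RNA from ribosome pull-down of Otp-lineage cells was amplified to double-stranded cDNA with primers at poly(A) tails and at random and sequenced on an Illumina HiSeq, per the labels' protocols, which gives no strand and no molecular identifiers. The authors deposited whole-number counts of reads, 1 table a library, for 24421 gene symbols. The submitters' processing notes name TopHat2 2.0.9, HTSeq, DESeq2 and the mm10 build, and the strand setting and gene annotation were not given in the sources used here. In these tables the 92 spike-in and 5 counter rows (72.7% to 90.2% of all records, mainly alignments that were not unique) were left out.

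The test was the quasi-likelihood test of edgeR 4.0.16, run in R 4.3.3 (filterByExpr with minimum count 10 and total 15, TMM scaling, robust fit of KO over Control over 8 libraries, Benjamini-Hochberg over 15438 genes, threshold 0.05). CPM uses the TMM factors, SE is that of the difference of group means of log2(CPM + 0.1), and pair ratios used exact two-sided permutation. DESeq2 1.42.0 and limma 3.58.1 (limma-voom) were alternatives, with other scalings, filters, a covariate, a replicate block and each library left out. Lengths are merged GENCODE M21 exons (GRCm38), an annotation that may differ from the authors'. No library repeated another (chi-square per degree of freedom 25.9 or more over 28 pairs). Named genes were the 8 members, Cic, Otp, for each of the 7 lists of signalling, processing, transcription and cilium genes those past the threshold and the 3 of smallest p, and the 3 nearest genes per member. Genes named beyond that, those of the cell type marker lists included, were chosen after their values were seen. The members and lists were chosen with earlier results of these data known. The limit given for a count of 0 covers counting error only, and the limma-voom intervals rest on the spread between libraries.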

Additional observations from a re-analysis of the deposited data

Results flagged for a closer look

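Of 20 groups of 4 libraries checked for a value far from the rest (8 genes, Cic and Otp in KO and in Control), 1 was found, Cic in Control, with 72.3 CPM in replicate 2 and 100.5 to 103 CPM in replicates 1, 3 and 4. Chance gives about 1 in 20 such groups.

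Genes left out of the fit for low counts gave a signal in KO libraries above every Control library. Gh was at 1462 CPM in KO replicate 2 and 2.62 CPM in KO replicate 4, against 0.0529 CPM or less in Control. In KO replicate 2, Prl was at 207 CPM, Fshb at 16.1 CPM, Pou1f1 at 2.98 CPM, Ghrhr at 1.17 CPM and Ptpn6 at 1.17 CPM.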

How the results depend on the processing

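Of 18 alternatives, the sign held in all 18 for Cic, Sst, Ghrh, Sstr1, Sstr2, Sstr3 and Sstr4 and in all 17 that gave a value for Cort. Cort and Sstr5 have no value with at least 1 CPM required in 4 samples. Only Sstr3 (9) and Cic (18) passed in any. Sstr3 lost its call with library totals only (-0.91, edgeR adjusted p = 0.0627), with limma-voom (-0.90, adjusted p = 0.0525) and with the score of glial and vascular genes held constant (-0.98, adjusted p = 0.0565). Its unadjusted p was 0.000126 in the main edgeR fit and 0.000148 by edgeR with library totals only, where the cause was not tested. It was 0.000119 by limma-voom and 9.7e-05 by edgeR with the score, so there the call was lost in the adjustment over all genes. With 1 library left out the Sstr3 log2 fold change ranged from -1.03 to -0.79. Sstr5 ranged from -0.79 to 0.088 there, with the turn to a positive sign when KO replicate 2 was left out. Over all genes tested, 40 were called, against 26 with library totals only, 182 with DESeq2, 23 with the covariate, 65 with the replicate block and 14 to 53 with 1 library left out. Leaving out KO replicate 2 gave 26 calls, and leaving out Control replicates 1, 2, 3 and 4 in turn gave 19, 17, 26 and 14. Same-numbered libraries correlated at -0.05 to 0.12 in their deviations, which does not show pairing. The replicate block (Sstr3 at -0.94, adjusted p = 0.0316) changed no call among the 8 genes. No pair ratio passed in any of 10 alternatives, and with 4 against 3 none could go below 0.0571. Over fits without 1 library, Sst over Ghrh ran from -0.10 to 0.16, Sstr1 over Sstr2 from -0.16 to 0.12, Sstr2 over Sstr4 from -0.42 to 0.078 and Sstr2 over Sstr5 from -0.024 to 0.86, each with both signs. The median over all genes was between -0.0041 and 0.03 in every alternative. The list counts without KO replicate 2 were added after the data were seen. Sstr5 and Cort had 6 to 64 counts a library where detected and a wide spread between libraries. The SD was 116% of the mean in KO and 85.5% in Control for Cort, and 72.6% and 40.1% for Sstr5. The part of depth in that spread was not tested.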
